A study of Rattus norvegicus with 35 samples.

Results

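The comparison described here sets the mammary gland of female rats exposed before birth to the higher bisphenol A dose together with indole-3-carbinol against the gland of unexposed controls. It takes the 5 arrays titled as bisphenol A 250 plus indole-3-carbinol (BPA250+I3C) and the 5 titled as negative control (control), 10 arrays of the 35 in the series, across all 41012 probes that are not array controls. In the BPA250+I3C group, Sprague-Dawley dams received 250 µg/kg/day of bisphenol A (BPA) and a chow with 2000 mg/kg of indole-3-carbinol (I3C), about 45.0 mg/kg/day, from gestational day 10 to 21. Control dams received neither compound. Total RNA came from the abdominal left mammary gland of female offspring at postnatal day 21, and 150 ng of it was labelled with Cy3 for each 1-colour Agilent array. The series also holds BPA at 25 and 250 µg/kg/day without a diet (BPA25, BPA250) and both doses with genistein or I3C. No group with I3C alone is labelled, so the comparison with control covers both compounds at once, and BPA250, BPA25+I3C and BPA250+genistein are used below only as further sets to compare with.

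BPA, a building block of plastics, is a weak ligand of the oestrogen receptors. I3C comes from cruciferous vegetables, and its acid condensation products bind the aryl hydrocarbon receptor (Ahr), a ligand-activated transcription factor that turns on cytochrome P450 genes such as Cyp1a1. At weaning, the rat mammary gland is a small epithelial tree inside a white fat pad that lies on the body wall and its muscle. A sample of the whole pad therefore holds adipocytes, epithelium, vessels, blood and, at its edge, skeletal muscle.

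The probes of some genes described below are shown first, so that their values can be tied to what was hybridised. They are 60 bases long, are read from the array files and are placed on rn3, the build given there. Tnni1 (slow troponin I) stands for muscle and Krt8 (a keratin of luminal cells) for epithelium. Fdps, which makes farnesyl diphosphate, and Cyp51, which acts on lanosterol, stand for cholesterol synthesis. Oas1a (oligoadenylate synthetase) is an interferon-stimulated gene and does not stand for its list, which did not separate the groups. The Krt8 probe covers a genomic span of 983 bases and the Fdps probe one of 501 bases, so both cross gaps between aligned blocks.
Tnni1 probe, rn3 chr13:48854116-48854175, plus strand: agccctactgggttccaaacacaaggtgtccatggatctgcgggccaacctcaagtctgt
Krt8 probe, rn3 chr7:140793404-140794386, minus strand: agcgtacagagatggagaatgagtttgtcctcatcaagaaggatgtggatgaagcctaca
Fdps probe, rn3 chr2:181119785-181120285, minus strand: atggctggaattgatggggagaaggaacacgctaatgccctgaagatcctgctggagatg
Cyp51 probe, rn3 chr4:26775187-26775246, plus strand: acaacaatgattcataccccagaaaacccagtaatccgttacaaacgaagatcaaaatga
Oas1a probe, rn3 chr12:36680000-36680059, plus strand: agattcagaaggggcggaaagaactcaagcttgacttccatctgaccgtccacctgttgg

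Promoters were read from RefSeq for GRCr8 as the 250 bases before the transcription start of 4 genes of the muscle and cholesterol lists. Capitals mark CAGCTG, the E-box that myogenic factors bind, in Acta1 (skeletal muscle actin) and Ckm (muscle creatine kinase), and CCAAT or its complement ATTGG, the box bound by NF-Y, in Fdps and Hmgcs1 (cytosolic HMG-CoA synthase). Fdps was named by rule, and Ckm and Hmgcs1 were chosen after their values were seen. On either strand, CAGCTG was found in 6 of 15 fast muscle promoters and 4 of 10 slow muscle promoters (40.0% each), against 12.0% of the promoters of 7622 tested genes. It was also found in 3 of 8 luminal promoters (37.5%) and in 0 of 2 promoters of myogenic factors. CCAAT was found in 14 of 17 cholesterol synthesis promoters (82.4%) and 11 of 14 fatty acid and triglyceride promoters (78.6%), against 35.8% of the promoters of tested genes, and also in 4 of 5 erythroid promoters (80.0%). GCGTG, the core to which Ahr binds, was found in 3 of 4 promoters of measured Ahr target genes, against 44.3% of the promoters of tested genes. A match is a description of these letters and not a shown binding site.
Acta1 promoter, GRCr8 chr19:68784195-68784444, minus strand: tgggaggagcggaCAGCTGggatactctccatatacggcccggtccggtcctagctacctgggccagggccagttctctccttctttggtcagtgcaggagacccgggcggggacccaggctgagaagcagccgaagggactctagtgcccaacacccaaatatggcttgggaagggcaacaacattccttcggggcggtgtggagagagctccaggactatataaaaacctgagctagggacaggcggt
Ckm promoter, GRCr8 chr1:88189211-88189460, plus strand: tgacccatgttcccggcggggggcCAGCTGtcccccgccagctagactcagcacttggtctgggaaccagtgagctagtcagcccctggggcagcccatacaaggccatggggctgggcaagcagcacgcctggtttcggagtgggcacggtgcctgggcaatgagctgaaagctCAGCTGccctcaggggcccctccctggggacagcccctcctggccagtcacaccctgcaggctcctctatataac
Fdps promoter, GRCr8 chr2:176804817-176805066, minus strand: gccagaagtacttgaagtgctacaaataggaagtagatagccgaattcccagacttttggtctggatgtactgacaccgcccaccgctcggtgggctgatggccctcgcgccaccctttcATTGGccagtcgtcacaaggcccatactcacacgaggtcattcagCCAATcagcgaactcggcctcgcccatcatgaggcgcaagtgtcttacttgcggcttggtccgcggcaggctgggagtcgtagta
Hmgcs1 promoter, GRCr8 chr2:53382054-53382303, plus strand: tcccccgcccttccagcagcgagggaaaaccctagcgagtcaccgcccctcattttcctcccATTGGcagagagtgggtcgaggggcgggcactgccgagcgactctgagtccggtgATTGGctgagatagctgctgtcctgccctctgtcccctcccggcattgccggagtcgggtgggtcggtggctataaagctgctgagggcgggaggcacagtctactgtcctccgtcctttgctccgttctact

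Levels below are log2 of the background-corrected signal after subtracting the 75th percentile of the same array. Differences are log2 fold changes, BPA250+I3C minus control, with the standard error of limma's fit to all 35 arrays. Precision is limited by the 5 arrays in each group. Between 39.7% and 48.3% of spots were well above background on 4 BPA250+I3C arrays and 68.9% on replicate 3, against 41.9% to 48.5% on 4 control arrays and 93.5% on control replicate 2. Both arrays stand apart from the rest of their group, but other arrays on their slides had similar shares. Control replicate 2 is on slide 3, where all arrays had 93.5% to 96.5%. BPA250+I3C replicate 3 is on slide 4, where all arrays had 68.9% to 69.2%. Both slides were scanned on scan day 5. Most list medians are given below with and without control replicate 2. Slide (10 levels) took 61.4% of the variance of the series, scan day (5 levels) 39.4% and group (7 levels) 16.4%, each taken alone. Such a share grows with the number of levels even where a factor has no effect, so the group share is not read as an effect of treatment. BPA250+I3C replicates 1, 4 and 5 share slides 1, 8 and 9 with control replicates 1, 4 and 5, which gives 3 differences within a slide. The label of the tissue was checked against its markers: the adipocyte genes Adipoq, Fabp4, Plin1 and Lep and the keratins Krt18, Krt19, Krt5 and Krt14 were above background on all 10 arrays. Krt8 was above background on 2 of the BPA250+I3C arrays and on 5 of the control arrays, and Wap, a late milk protein, on 0 of either.

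No gene passed the test across 16151 genes in the fit without a slide term. At a Benjamini-Hochberg adjusted p under 0.05 limma called 0 genes, 0% in either direction, and the lowest adjusted p was 0.226. This depends on how the arrays are modelled: limma called 87 genes (20 higher, 67 lower) with slide as a random block and 162 with array weights, but 0 with slide as a fixed block. Of the 87, 28 are named in the text, 11 higher and 17 lower, with adjusted p between 0.0354 and 0.0482 under that block. They include Acta1, Tnni1, Myog, Csn3, Oas1a, Npy, Pmepa1, Fdps and Hsd17b7. At an unadjusted p under 0.05 there were 301 higher genes (1.86% of those tested) and 285 lower genes (1.76%). Without control replicate 2 these were 143 higher and 274 lower, and without BPA250+I3C replicate 5 they were 163 higher and 236 lower. The groups did not overlap for 107 genes that were higher on every BPA250+I3C array (0.662%) and for 117 that were lower (0.724%). The median log2 fold change of all genes was 0.20, and 69.4% of genes lay above 0 and 30.6% below it. This median moved between -0.16 and 0.26 under the other scalings and filters, and was 0.02 without control replicate 2, so lists are also read against it. The median standard error was 0.41. The labels do not say whether the animals of a group came from separate litters. The p-values therefore rest on the spread between single samples within a group, which the fit pools over all groups of the series. When fitted to only the 10 arrays compared, limma called 67 genes (1 higher, 66 lower). Among the 16151 genes, 40 were above background on no BPA250+I3C array, 8 of them being above it on all 5 controls, and 2 were above background on no control array. The counts of 40 and 2 are not alike. Control replicate 2 had 93.5% of spots above background, and no BPA250+I3C array had more than 68.9%. No direction is read from them.

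Skeletal muscle genes stood furthest apart. Of 18 fast muscle genes looked up, 16 were measured and all 16 were lower in BPA250+I3C, with a median log2 fold change of -5.45 and single values from -6.96 to -3.25. All 16 had an unadjusted p under 0.05, a share to be read against 1.76% of all genes, and for 15 the groups did not overlap, against 0.724% of all genes. Of 13 slow muscle genes, 12 were measured, 10 were lower and 10 had an unadjusted p under 0.05, with a median of -2.53 (-2.80 without control replicate 2). Of 10 myogenic factors and embryonic muscle genes, 3 were measured, and these were lower with a median of -3.35, with or without control replicate 2. A muscle gene that is dim in BPA250+I3C entered the test through other groups in which it is bright, so these counts are partly fixed by the filter and are given as a description. Among the 6 fast muscle genes above background on all 10 arrays, all 6 were lower without overlap, with a median of -4.91. In whole-tissue RNA, fewer cells of a type and less RNA per cell cannot be told apart.

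The mean level over the 16 fast muscle genes was 2.08, 0.38, -1.70, -2.96 and -2.57 in BPA250+I3C replicates 1 to 5, against 3.54, 3.63, 4.55, 3.28 and 6.62 in control replicates 1 to 5. Every BPA250+I3C array lay below every control array. Within BPA250+I3C the spread was wide, with replicate 1 nearest to the controls, and control replicate 5 was the brightest. Acta1, the actin of skeletal muscle thin filaments, was at 1.30, -0.38, -1.38, -3.23 and -3.40 in BPA250+I3C, against 3.74, 3.87, 4.42, 3.17 and 7.0 in control. Its log2 fold change was -5.86 ± 1.51 (SE, limma adjusted p = 0.226). Ckm, which regenerates ATP in muscle, was at 3.22, 1.11, -1.16, -3.58 and -4.96 in BPA250+I3C, against 4.86, 5.07, 5.71, 4.37 and 8.29 in control. BPA250+I3C replicates 4 and 5 were the lowest for both genes, and the groups did not overlap. Eno3, the muscle enolase, was above background on all 10 arrays and had a log2 fold change of -3.83 ± 0.99.

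Where a gene was above background on only some BPA250+I3C arrays, its levels on the others have no order and its fold change is not an exact size. Acta1 was above background on 3 BPA250+I3C and 5 control arrays. Several genes, most of them of muscle, were not well above background on any BPA250+I3C array, so their fold change is only a bound. It is taken against the lowest signal of any probe counted as above background on each array, or the gene's own signal where higher. The limit for a single probe can lie above that signal, so the bounds are approximate. Ryr1, the calcium release channel of the sarcoplasmic reticulum, was above background on 0 BPA250+I3C arrays and on 5 control arrays and was at least 5.1-fold lower. Myog, the myogenin transcription factor, was at -2.85, -3.86, -4.47, -5.09 and -4.67 in BPA250+I3C, against -1.66, -0.83, -0.73, -1.5 and 1.74 in control, and was at least 4.57-fold lower. Myod1, the myogenic factor that acts before it, was above background on 0 BPA250+I3C and 4 control arrays and was at least 3.14-fold lower. None of these passed the adjusted test, and the groups did not overlap for any of the 3. Ppp1r27, a regulatory subunit of protein phosphatase, was at least 4.75-fold lower, Klhl41, a kelch protein of the sarcomere, at least 3.42-fold lower, and Sel1l3 at least 2.64-fold lower. In that order they were above background on 5, 4 and 3 control arrays. For Myod1, Klhl41 and Sel1l3 the control mean thus includes arrays on which the gene was not above background.

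Of the leading lower genes with a RefSeq name, most are known from striated muscle. Eef1a2, the elongation factor isoform of muscle and neurons, was at -1.39, -4.16, -5.26, -4.25 and -4.58 in BPA250+I3C, against 0.62, 0.40, 1.54, -0.01 and 3.04 in control. It was above background on 1 BPA250+I3C and 5 control arrays, and the log2 fold change was -5.04 ± 1.11 (limma adjusted p = 0.226). Tnni1, the inhibitory troponin subunit of slow fibres, was at -1.43, -3.55, -2.36, -4.82 and -4.30 in BPA250+I3C, against 1.01, -1.0, 0.96, -0.58 and 0.14 in control. It was above background on 2 BPA250+I3C and 5 control arrays, its groups did not overlap, and the log2 fold change was -3.40 ± 0.83. Hhatl had a log2 fold change of -5.00 ± 1.22, Myot, a Z-disc protein, one of -3.99 ± 1.0, and Fitm1, a lipid droplet protein of muscle, one of -3.90 ± 0.98. Each of these 3 was above background on 1 BPA250+I3C and 5 control arrays. So was Csrp3, the muscle LIM protein, which overlapped between groups because BPA250+I3C replicate 1 was at -0.27. Angpt4, an angiopoietin and thus a ligand of the endothelial receptor Tie2, was at -4.03, -4.21, -2.41, -4.67 and -3.22 in BPA250+I3C, against -0.05, -0.77, -1.97, -2.20 and -1.19 in control. It was above background on 1 BPA250+I3C array and on 5 control arrays, with a log2 fold change of -2.47 ± 0.57 (limma adjusted p = 0.226).

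**Figure D1:**
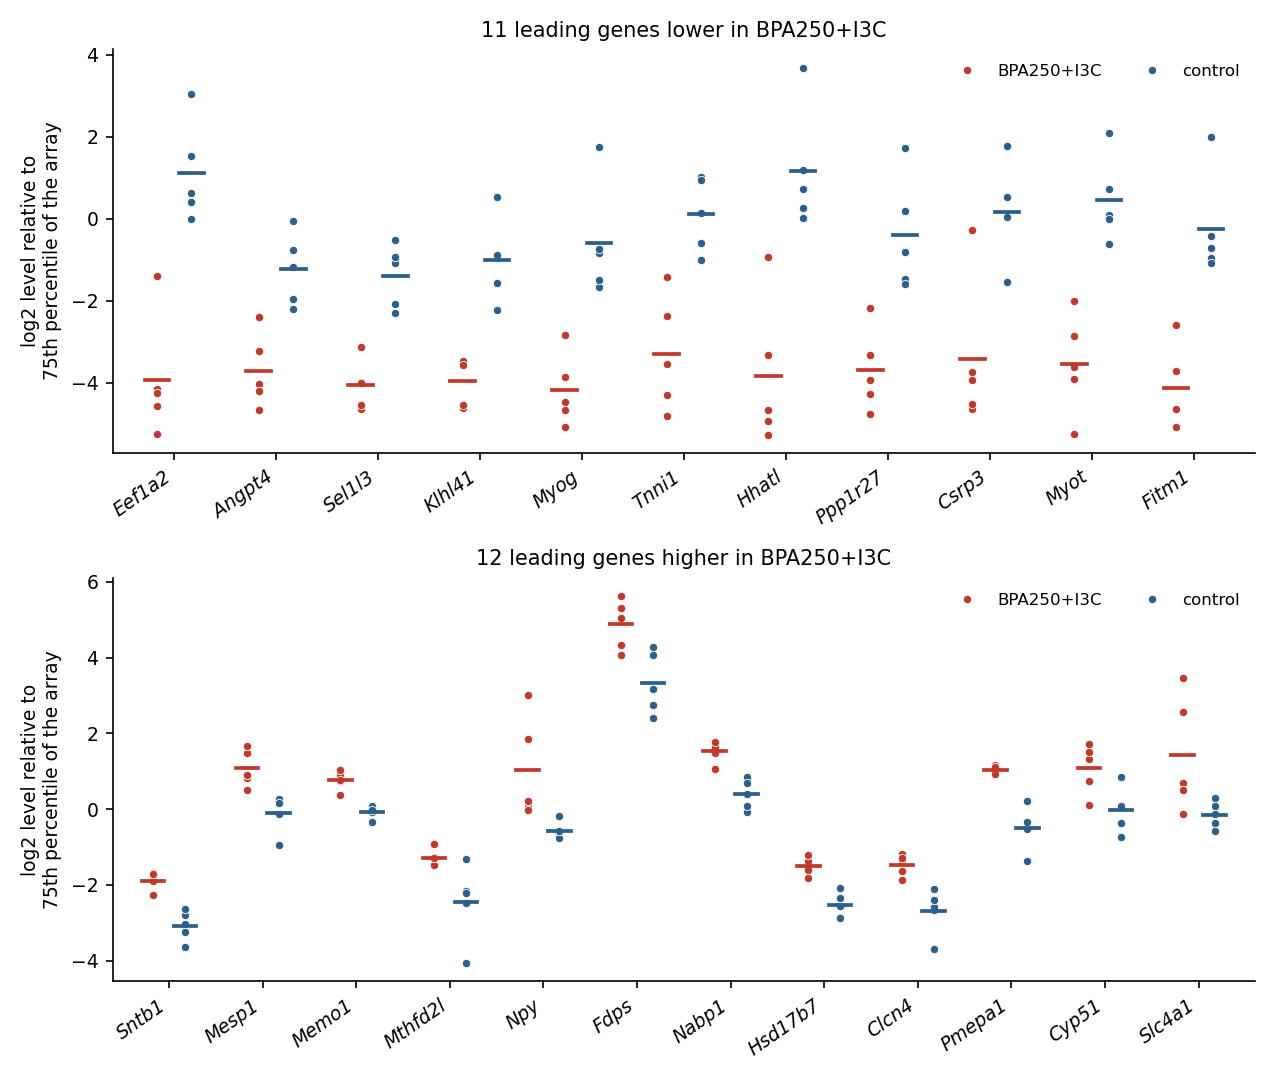
Log2 level relative to the array's 75th percentile (y axis) of 11 leading lower genes (top) and the 12 leading higher genes (bottom) on each of 5 BPA250+I3C arrays (red, left) and 5 control arrays (blue, right); bars are group means. Eef1a2 separates the groups with BPA250+I3C replicate 1 nearest to control, and Npy and Slc4a1 are spread in BPA250+I3C.

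Not every gene of the muscle lists was lower. Myoz2, which ties calcineurin to the Z-disc of slow fibres, had a log2 fold change of -2.49 ± 0.64 and groups that did not overlap, with 1 BPA250+I3C and 5 control arrays above background. Tpm3 and Atp2a2, named after their values were seen because they were the 2 slow muscle genes that were higher, encode a tropomyosin and a calcium pump that many other cells also make. Their log2 fold changes were 0.62 ± 0.68 and 0.81 ± 0.44, and control replicate 2 was the lowest control array for both. Des, the muscle intermediate filament listed with smooth muscle, had a log2 fold change of -1.51 ± 0.59, and Myh3, embryonic myosin, one of -3.35 ± 1.09 from 4 control arrays, since the spot of replicate 2 was an outlier. Myh3 was above background on 2 BPA250+I3C arrays. Cox8b, a cytochrome oxidase subunit of brown fat and heart-type muscle, was at 2.98, 1.25, -0.29, -1.60 and 1.24 in BPA250+I3C, against 3.95, 3.37, 4.49, 3.47 and 5.91 in control. It did not overlap, whereas Ucp1, the uncoupling protein that defines brown fat, had the opposite sign at 1.78 ± 0.84. The brown adipocyte list as a whole had no common direction. Of 10 genes looked up, 5 were measured, 3 higher and 2 lower, with a median of 0.21 against 0.20 for all genes. The list mean differed by 1.47, -0.75 and -0.59 on slides 1, 8 and 9, which BPA250+I3C and control share.

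The muscle lists were also lower on each shared slide. The fast muscle mean was lower by -1.46 on slide 1, -6.24 on slide 8 and -9.19 on slide 9 as a log2 difference, and all 16 genes were lower on all 3 slides, against 15.6% of all genes. The slow muscle mean differed by -1.23, -2.76 and -3.44 on the same slides. On slides 8 and 9 the BPA250+I3C fast muscle means lay near the lowest level counted as above background on those arrays, -2.96 and -2.72. The fast muscle differences on these 2 slides are therefore not exact sizes. Without control replicate 2 the fast muscle median was -5.62, and over 26 settings it lay between -6.42 and -4.07 relative to the median of all genes. The slow muscle median was 0.62 among the 3 genes that are above background on all 10 arrays, 2 of which are Tpm3 and Atp2a2, so this stricter filter turned its direction. How much muscle tissue each dissected sample held was not recorded in the labels, and its part in these differences was not tested.

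**Figure D2:**
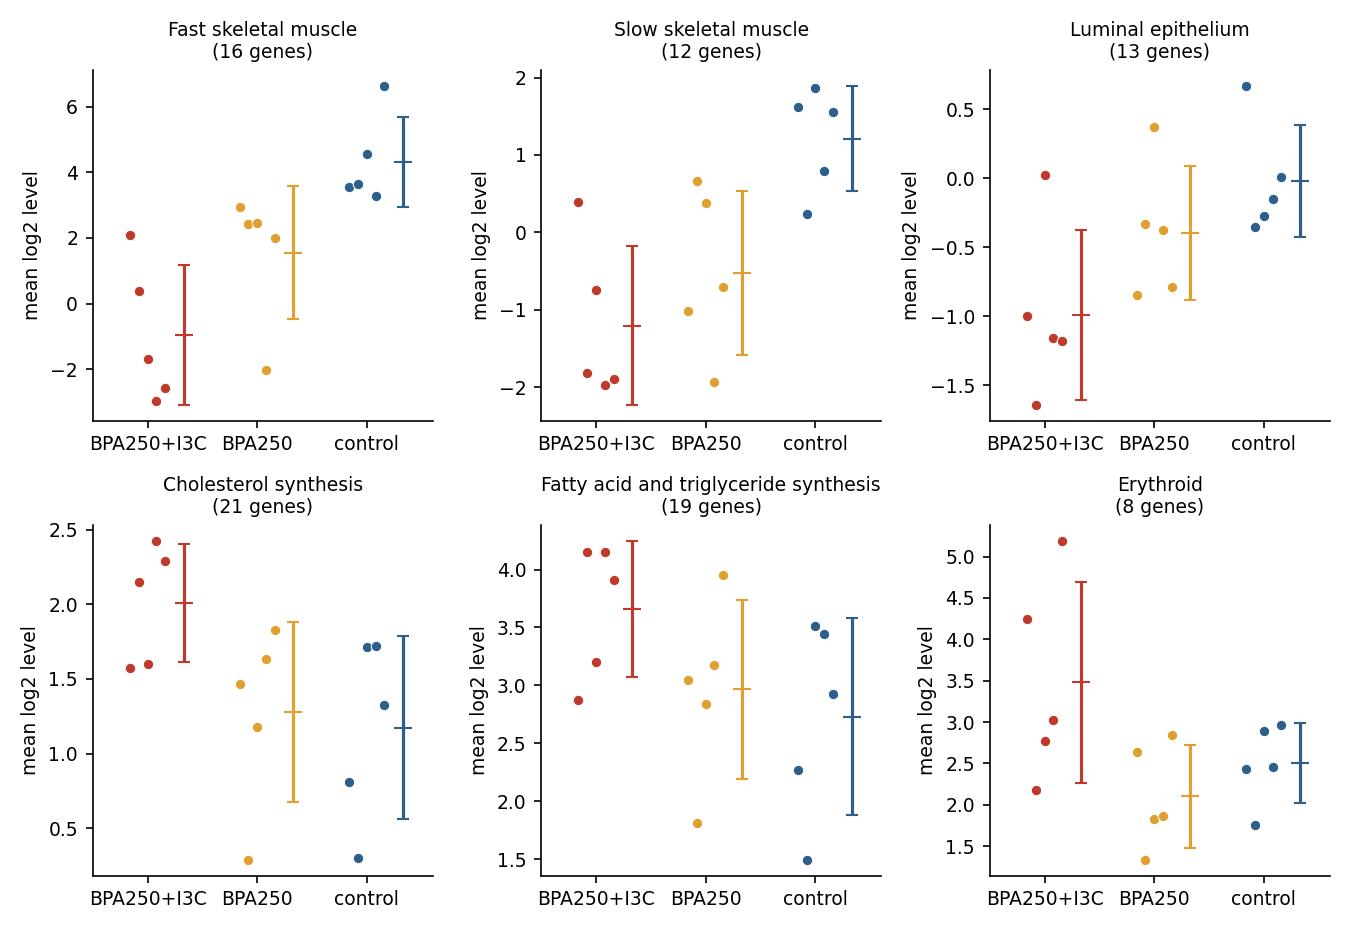
Mean log2 level over the measured genes of 6 lists (y axis) on each array of BPA250+I3C, BPA250 and control (5 arrays each); horizontal bars and whiskers are the group mean and SD. Fast muscle means run from -2.96 to 2.08 in BPA250+I3C and from 3.28 to 6.62 in control without overlap, while the other lists overlap.

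Luminal epithelial genes had lower levels in BPA250+I3C. Of 18 looked up, 13 were measured and 12 had a log2 fold change below 0, against 30.6% of all genes. Of them 4 had an unadjusted p under 0.05, against 1.76% of all genes, and the list median was -1.0, or -1.15 without control replicate 2. A luminal or basal gene that is dim in BPA250+I3C entered the test through other groups in which it is bright. Counts for these lists are therefore partly fixed by the filter and are given as a description. The list mean was -1.0, -1.64, 0.02, -1.16 and -1.18 in BPA250+I3C, against 0.67, -0.36, -0.27, -0.15 and 0.01 in control. BPA250+I3C replicate 3 lay inside the control range and the other 4 arrays lay below it. Krt8, the keratin of simple and luminal epithelium, was at -2.08, -3.69, -0.51, -2.0 and -1.80 in BPA250+I3C, against -0.48, 0.41, -1.06, -0.89 and -0.90 in control, with a log2 fold change of -1.43 ± 0.58 (limma adjusted p = 0.918). Cldn7 and Cldn4, claudins of epithelial tight junctions, had log2 fold changes of -1.68 ± 0.76 and -1.29 ± 0.59. Cldn7 was above background on 2 and Cldn4 on 4 BPA250+I3C arrays, and both on 5 control arrays. Gata3, the transcription factor needed for luminal cells, had one of -1.73 ± 0.83, with BPA250+I3C replicate 3 at -1.42 and the other 4 BPA250+I3C arrays between -4.36 and -3.61, and it was above background on 1 BPA250+I3C and 5 control arrays. Epcam, an epithelial adhesion molecule, was named after its values were seen because it was the 1 luminal gene whose groups did not overlap. It was at -0.19, -0.04, 0.20, -0.88 and -0.39 in BPA250+I3C, against 2.21, 0.29, 0.43, 0.95 and 0.53 in control.

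The luminal mean differed by -1.66, -1.01 and -1.19 on slides 1, 8 and 9, and 10 of 13 genes were lower on all 3 slides, against 15.6% of all genes. Its median stayed between -1.49 and -0.58 relative to all genes over 26 settings. Of 13 basal and myoepithelial genes, 9 were measured, 5 lower and 4 higher, with a median of -0.79 (-0.93 without control replicate 2) and 0 at an unadjusted p under 0.05. Krt5, a basal keratin, had a log2 fold change of -0.90 ± 0.60, and Tp63, the transcription factor that maintains basal cells, one of -1.0 ± 0.61, with 2 BPA250+I3C and 5 control arrays above background. On slides 1, 8 and 9 the basal mean differed by -1.12, -0.81 and -0.49.

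Among milk proteins, 4 of 7 measured genes were lower, and 1 had an unadjusted p under 0.05, with a median of -0.20 (-0.39 without control replicate 2). Csn3, the casein that stabilises micelles, was at -4.24, -3.90, -2.42, -3.70 and -2.98 in BPA250+I3C, against -0.24, -1.31, -1.48, -2.11 and -1.64 in control. Every BPA250+I3C array lay below every control array, and the log2 fold change was -2.09 ± 0.55 (limma adjusted p = 0.226). It was above background on 1 BPA250+I3C array and 4 control arrays, so its size is uncertain. Csn1s1, another casein, above background on 4 BPA250+I3C and 5 control arrays, had a log2 fold change of -1.22 ± 0.85, and Lalba, the lactose synthase subunit, one of -1.02 ± 0.89. Csn2, the main casein, was at -0.30, -0.64, -0.19, -1.5 and -1.71 in BPA250+I3C, against -0.37, -1.83, -0.75, -1.61 and -0.89 in control, so the groups overlapped throughout. Its log2 fold change was 0.22 ± 0.49, and its sign turned under 4 other settings, so no direction is given for it.

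Genes of lipid synthesis stood higher in BPA250+I3C. Of 25 cholesterol synthesis genes looked up, 21 were measured and 20 had a log2 fold change above 0, against 69.4% of all genes. Their median was 0.93 against 0.20 for all genes, and 10 had an unadjusted p under 0.05, against 1.86% of all genes. Of 22 genes of fatty acid and triglyceride synthesis, 19 were measured and 19 lay above 0, with a median of 0.90 and 5 at an unadjusted p under 0.05. On slides 1, 8 and 9 the cholesterol mean differed by 0.76, 0.70 and 0.96, and the fatty acid and triglyceride mean by 0.60, 0.70 and 0.98. Of the cholesterol genes 18 of 21, and of the fatty acid genes 13 of 19, were higher on all 3 slides, against 23.9% of all genes. Without control replicate 2 the medians were 0.60 and 0.59.

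Fdps makes the farnesyl diphosphate used for sterols and prenylated proteins. It was at 4.34, 5.04, 4.06, 5.62 and 5.32 in BPA250+I3C, against 2.40, 2.75, 4.29, 4.07 and 3.17 in control. Its groups overlapped in that BPA250+I3C replicate 3 lay below control replicates 3 and 4, and the log2 fold change was 1.54 ± 0.42 (limma adjusted p = 0.235). Cyp51, which removes a methyl group from lanosterol, was at 0.11, 1.33, 0.73, 1.73 and 1.5 in BPA250+I3C, against -0.75, -0.38, 0.06, 0.85 and 0.09 in control, with a log2 fold change of 1.10 ± 0.32. Hsd17b7, a ketosteroid reductase of the same pathway that can also reduce oestrone, was at -1.5, -1.38, -1.82, -1.20 and -1.62 in BPA250+I3C, against -2.55, -2.85, -2.08, -2.88 and -2.35 in control. It was the 1 cholesterol gene without overlap, with a log2 fold change of 1.04 ± 0.29 (limma adjusted p = 0.264). On control replicate 1 the level of Hsd17b7 lay below the lowest level counted as above background on that array, -2.18. The fold change of Hsd17b7 is therefore not an exact size. Hmgcs1, an early enzyme of the pathway, had a log2 fold change of 1.06 ± 0.57. Srebf2, the transcription factor that switches on the pathway and the 1 listed gene below 0, had one of -0.06 ± 0.30, and its sign turned under 3 settings.

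In fatty acid synthesis, Me1 (malic enzyme, a source of NADPH) was at 2.76, 4.90, 2.66, 4.84 and 4.41 in BPA250+I3C, against 1.04, 0.36, 2.85, 2.80 and 2.31 in control. BPA250+I3C replicates 1 and 3 fell within the control range and the other 3 lay above it, with a log2 fold change of 2.04 ± 0.67 (limma adjusted p = 0.58). Gpam, which starts triglyceride synthesis, was at 0.45, 1.79, 0.72, 1.99 and 1.44 in BPA250+I3C, against -0.81, -0.19, 0.36, 0.39 and -0.24 in control. Its groups did not overlap, and the log2 fold change was 1.38 ± 0.45 (limma adjusted p = 0.591). Elovl6, which lengthens fatty acids, had a log2 fold change of 1.66 ± 0.70, and Gpd1, which makes glycerol phosphate in adipocytes, one of 1.34 ± 0.56. The white adipocyte list as a whole had a median of 0.33, with 13 of 17 genes above 0 (against 69.4% of all genes) and 1 at an unadjusted p under 0.05, and its median without control replicate 2 was 0.05. Lpl, lipoprotein lipase, had a log2 fold change of 0.93 ± 0.53 and Fabp4, the adipocyte fatty acid binding protein, one of 0.60 ± 0.48, with 1 saturated BPA250+I3C array. For both, control replicate 2 was the lowest of the 10 arrays.

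**Figure D3:**
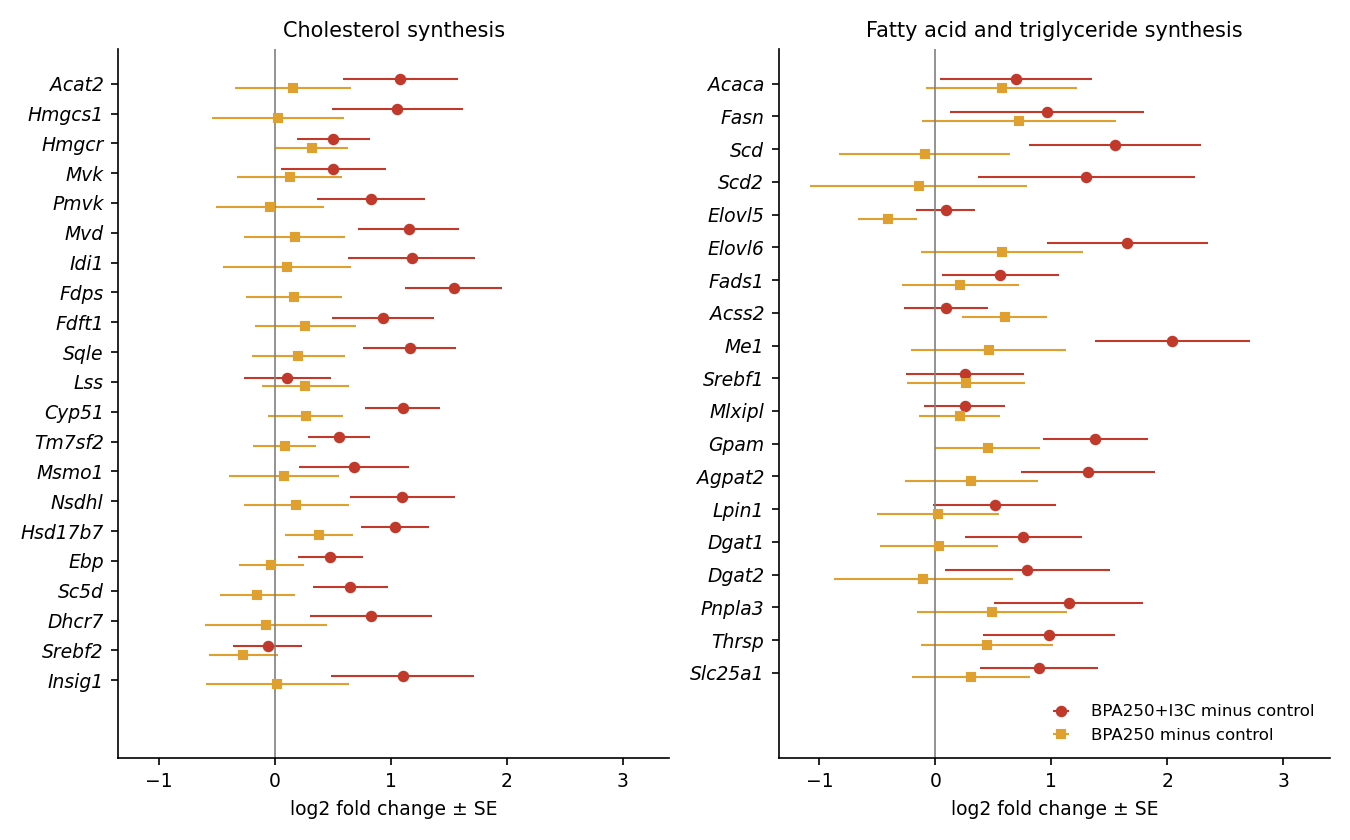
Log2 fold change with its standard error (x axis) of 21 cholesterol synthesis genes (left) and 19 fatty acid and triglyceride synthesis genes (right), for BPA250+I3C minus control (red circles) and BPA250 minus control (yellow squares), which share the same 5 control arrays. In BPA250+I3C minus control Fdps is at 1.54 and Me1 at 2.04, and 20 of 21 and 19 of 19 genes lie above 0.

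Mitochondrial genes stood slightly higher. All 25 measured genes of oxidative phosphorylation had a log2 fold change above 0, against 69.4% of all genes, with a median of 0.56, but 1 had an unadjusted p under 0.05. Without control replicate 2, whose list mean was 3.50 against 4.91 to 5.48 on the other control arrays, the median was 0.19, against 0.02 for all genes. Cycs, the electron carrier cytochrome c, was at 6.27, 6.51, 5.70, 6.24 and 6.45 in BPA250+I3C, against 4.86, 3.80, 5.67, 5.88 and 5.71 in control, with a log2 fold change of 1.05 ± 0.51. Uqcrfs1, the Rieske protein of complex III, and Sdhb, a complex II subunit, had log2 fold changes of 0.83 ± 0.46 and 0.72 ± 0.42. On slides 1, 8 and 9 the list mean differed by 0.57, 0.25 and 0.35. In lipolysis and fatty acid oxidation, 15 of 18 measured genes lay above 0 with a median of 0.52, which was 0.16 without control replicate 2. Ucp3, an uncoupling protein of muscle and fat, was at 0.36, 0.82, 0.25, 1.03 and 0.65 in BPA250+I3C, against -0.55, -0.08, -0.14, 0.12 and -0.19 in control. It did not overlap between groups, and the log2 fold change was 0.79 ± 0.25 (limma adjusted p = 0.49). Cpt1b, the muscle-type carnitine transferase that brown fat also makes, had one of 1.07 ± 0.48, opposite in sign to the muscle lists.

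Of 12 measured targets of Nrf2, the regulator of antioxidant genes, 11 lay above 0, against 69.4% of all genes, with a median of 0.42. Of them 2 had an unadjusted p under 0.05, against 1.86% of all genes. Me1, described above, was the highest. Ftl1, the ferritin light chain, had a log2 fold change of 0.82 ± 0.42. The list median was 0.29 without control replicate 2, and the mean differed by 0.43, 0.44 and 0.49 on slides 1, 8 and 9.

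**Figure D4:**
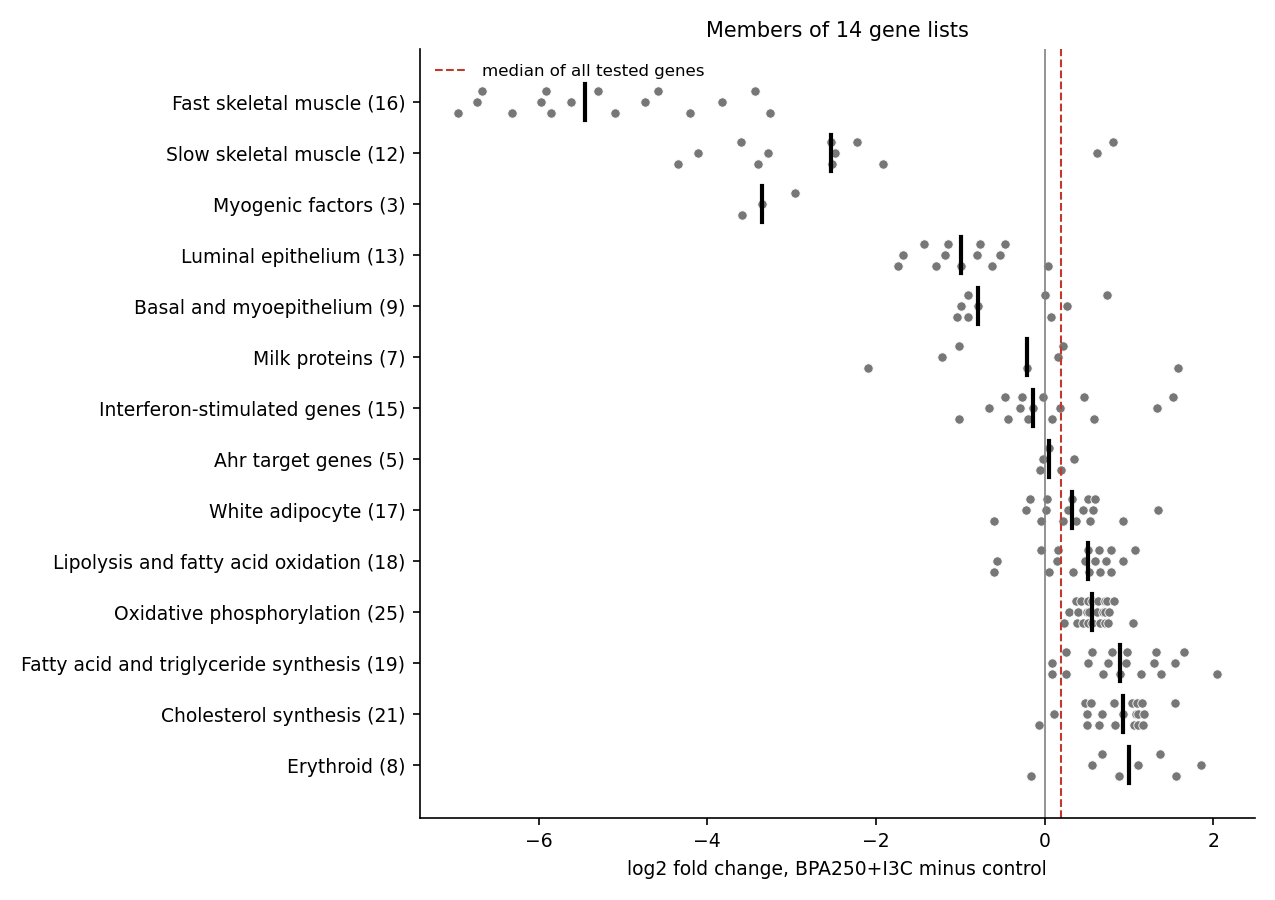
Log2 fold change, BPA250+I3C minus control (x axis), of each measured gene (grey points) of 14 lists, with the number of genes in brackets and the list median as a black bar; the red dashed line is the median of all 16151 genes, 0.20. The muscle lists lie to the left, with medians of -5.45, -2.53 and -3.35, and cholesterol synthesis, fatty acid synthesis and erythroid genes to the right, with medians of 0.93, 0.90 and 1.0.

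Among the 12 leading higher genes outside lipid synthesis, Pmepa1, a transmembrane inhibitor of TGF-beta signalling, was even within BPA250+I3C. It was at 1.18, 1.06, 0.93, 1.11 and 0.92 in BPA250+I3C, against -0.51, -1.36, 0.22, -0.53 and -0.35 in control, a log2 fold change of 1.54 ± 0.45 (limma adjusted p = 0.309). Every BPA250+I3C array lay above every control array, and the within-slide differences were 1.68, 1.64 and 1.26. Memo1, which takes part in ErbB2-driven cell movement, was at 0.73, 0.91, 0.37, 1.04 and 0.77 in BPA250+I3C, against -0.09, -0.33, 0.02, 0.09 and -0.02 in control, again without overlap. Its log2 fold change was 0.83 ± 0.22 (limma adjusted p = 0.226). Mesp1, a mesoderm transcription factor, had one of 1.17 ± 0.30, Nabp1, a single-strand DNA binding protein, one of 1.14 ± 0.31, Sntb1, a syntrophin, one of 1.19 ± 0.30, and Clcn4, a chloride and proton exchanger, one of 1.23 ± 0.35 from 4 BPA250+I3C and 2 control arrays above background. None of these 4 overlapped between groups. Mthfd2l, a mitochondrial folate enzyme, had a log2 fold change of 1.16 ± 0.31 and overlapped.

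Red blood cell genes were highest on 2 BPA250+I3C arrays. Of 11 erythroid genes looked up, 8 were measured and 7 lay above 0, against 69.4% of all genes, with a median of 1.0 (0.88 without control replicate 2). Of them 3 had an unadjusted p under 0.05, against 1.86% of all genes. The list mean was 4.25, 2.18, 2.77, 3.02 and 5.19 in BPA250+I3C, against 2.44, 1.76, 2.89, 2.45 and 2.97 in control. BPA250+I3C replicates 1, 4 and 5 lay above every control array, replicate 4 only just, and replicates 2 and 3 lay inside the control range. Alas2, which starts haem synthesis in red cell precursors, was at 5.37, 2.59, 3.85, 3.82 and 6.46 in BPA250+I3C, against 2.61, 1.33, 3.12, 2.50 and 3.28 in control, with a log2 fold change of 1.85 ± 0.62 (limma adjusted p = 0.637). Slc4a1, the band 3 anion exchanger, was at 2.55, -0.14, 0.69, 0.51 and 3.46 in BPA250+I3C, against -0.58, -0.14, 0.28, -0.37 and 0.07 in control, with a log2 fold change of 1.56 ± 0.47.

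The same 2 arrays were the highest for 3 genes of other lists. Npy, the neuropeptide Y precursor, was at 1.84, 0.05, 0.21, -0.02 and 3.02 in BPA250+I3C, against -0.68, -0.73, -0.78, -0.57 and -0.19 in control. Its groups did not overlap, and the log2 fold change was 1.61 ± 0.43 (limma adjusted p = 0.226). Rsad2, viperin, was at 2.10, -0.57, 0.53, -0.09 and 3.19 in BPA250+I3C, against -0.72, -0.97, -0.57, -0.27 and 0.08 in control. Ifit1, another interferon-induced antiviral gene, was at 1.99, -0.25, 0.22, -0.74 and 2.81 in BPA250+I3C, against -1.0, -0.66, -0.35, -0.75 and 0.10 in control. Their log2 fold changes were 1.52 ± 0.49 and 1.34 ± 0.50, and BPA250+I3C replicates 1, 3 and 5 lay above every control array for both, while replicates 2 and 4 overlapped the controls. Erythroid genes were highest on these 2 arrays as well, and the part of blood content in these values was not tested.

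Within BPA250+I3C the interferon list mean was also highest on replicates 1 (0.49) and 5 (0.66), against -0.05 to 0.25 on the others. The list did not separate the groups, since its mean ran from -0.12 to 0.69 in control. Of 15 measured interferon-stimulated genes 6 lay above 0 and 9 below, with a median of -0.14 (-0.18 without control replicate 2), 2 higher and 1 lower at an unadjusted p under 0.05. Oas1a, the sensor of double-stranded RNA whose probe is printed above, was at 0.78, 0.65, 0.71, 0.53 and 0.92 in BPA250+I3C, against 1.38, 1.66, 1.14, 2.47 and 2.02 in control. The 5 BPA250+I3C arrays were tightly grouped and all lay below the controls, with a log2 fold change of -1.02 ± 0.27 (limma adjusted p = 0.226). The list mean differed by 0.55, -0.63 and 0.13 on slides 1, 8 and 9.

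The genes that I3C and BPA are best known to act through were dim or did not separate the groups. Ahr was above background on 0 BPA250+I3C and 1 control array, Arnt, its partner, on 1 BPA250+I3C and 2 control arrays, and Cyp1a1 on 2 arrays of each group. Cyp1a2 was above background on 0 BPA250+I3C and 1 control array, and Nqo1 on 2 BPA250+I3C and 1 control array, so no level is compared for them. Esr1 was above background on 1 array of each group, Esr2 on 0 BPA250+I3C and 1 control array, Pgr on 2 BPA250+I3C and 1 control array, and Gper1 on 0 BPA250+I3C and 1 control array. Cyp1b1, an oestrogen-hydroxylating target of Ahr, was at -0.87, -0.69, 0.61, -0.22 and 0.66 in BPA250+I3C, against -0.33, 1.27, -0.84, -0.43 and -1.15 in control. The log2 fold change was 0.19 ± 0.45, with overlap throughout and a sign that turned under 4 settings. Tiparp, another Ahr target, was at 1.31, 1.16, 0.99, 1.0 and 1.16 in BPA250+I3C, against 1.04, -0.02, 1.02, 0.73 and 1.13 in control, a log2 fold change of 0.35 ± 0.34. Its sign turned under 1 scaling. Of 12 Ahr target genes 5 were measured, 3 lay above 0 and 0 had an unadjusted p under 0.05, with a median of 0.05, or -0.03 without control replicate 2.

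The chaperone Hsp90ab1, which binds Ahr in the cytosol, was bright. It was at 6.53, 6.62, 5.95, 6.22 and 6.36 in BPA250+I3C, against 6.38, 4.41, 6.27, 6.23 and 5.85 in control, where only replicate 2 was low. Its log2 fold change was 0.51 ± 0.46. Of 10 measured steroid receptor and oestrogen-responsive genes 7 lay above 0, against 69.4% of all genes, and 4 above the median of all genes. The list median was 0.08, or -0.17 without control replicate 2, and 1, Gata3, was lower at an unadjusted p under 0.05. Areg, the EGF receptor ligand through which oestrogen drives duct growth in mice, had a log2 fold change of -0.97 ± 0.56, with 3 BPA250+I3C and 5 control arrays above background. Among 8 genes of oestrogen synthesis and metabolism the median was 0.07 (-0.22 without control replicate 2), and Hsd17b7 was the 1 gene at an unadjusted p under 0.05. Of 20 phase II conjugation enzymes 0 had an unadjusted p under 0.05, and the median was 0.11 (-0.10 without control replicate 2).

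Other lists held few or no genes at an unadjusted p under 0.05, and their medians are each followed by the median without control replicate 2, to be read against 0.20 and 0.02 for all genes. In DNA replication and S phase, 12 of 15 genes lay above 0, against 69.4% of all genes, with a median of 0.45 (0.23) and 0 at an unadjusted p under 0.05. Tk1, thymidine kinase, had a log2 fold change of 0.91 ± 0.45 and Ccne1, cyclin E, one of 0.95 ± 0.49. The mitosis list had a median of 0.22 (0.01) and the p53 list one of 0.30 (0.04). Glycolysis had a median of 0.41 (0.18), heat shock and unfolded protein response genes 0.40 (0.10), MHC genes 0.33 (-0.03), cytosolic ribosomal proteins 0.27 (-0.12) and immediate early genes 0.29 (-0.05), each with 0 genes at an unadjusted p under 0.05. Hspa5, the chaperone of the endoplasmic reticulum, had a log2 fold change of 0.81 ± 0.44. Glucocorticoid-induced genes had a median of -0.08 (-0.33) and circadian genes one of 0.16 (0.03). Bhlhe40, a repressor within the clock, was the 1 circadian gene at an unadjusted p under 0.05, with a log2 fold change of 0.92 ± 0.39. Mammary growth factor genes had a median of 0.22 (-0.05) and chromatin enzymes one of 0.23 (-0.01). Wnt, Notch and hedgehog genes had a median of 0.00 (0.02), with Sfrp1, a secreted Wnt inhibitor, at -0.50 ± 0.26. Collagens and matrix genes had a median of 0.12 (-0.32), fibroblast genes 0.27 (-0.02), endothelial genes -0.14 (0.03), macrophage genes 0.17 (-0.17) and mast cell genes 0.23 (-0.05), each with 0 genes at an unadjusted p under 0.05. No direction is given for the lists whose sign turned. The macrophage scavenger receptor Cd163 had a log2 fold change of -0.62 ± 0.33. Schwann cell genes had a median of -0.42 (-0.50), with 6 of 9 lower. Prx, periaxin of the myelin sheath, had a log2 fold change of -0.98 ± 0.48, with 1 BPA250+I3C and 3 control arrays above background.

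**Figure D5:**
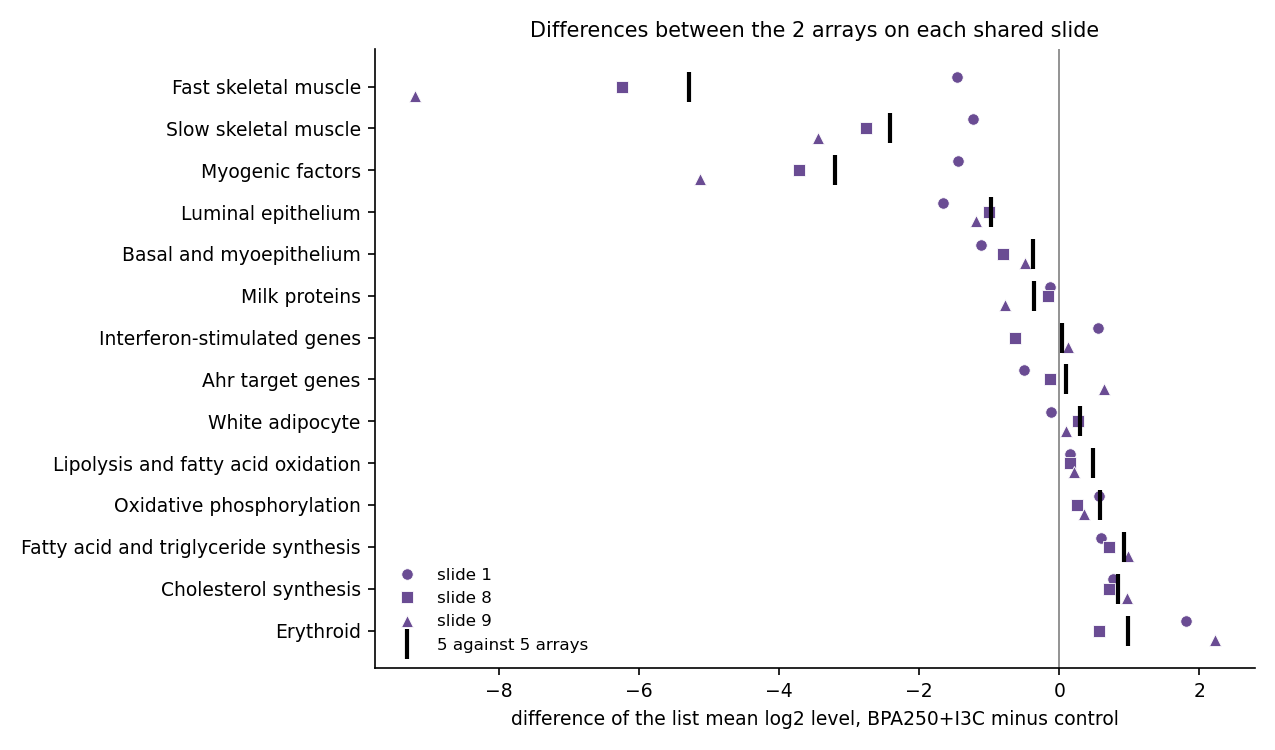
Difference of the list mean log2 level between the BPA250+I3C and the control array on slide 1 (circles), slide 8 (squares) and slide 9 (triangles), for 14 lists (x axis: BPA250+I3C minus control); black bars are the difference between the means of 5 against 5 arrays. Fast muscle runs from -9.19 to -1.46 and cholesterol synthesis from 0.70 to 0.96, while interferon and Ahr target genes lie on both sides of 0. The fast muscle differences on slides 8 and 9 are not exact sizes, since those BPA250+I3C means lie near background.

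Set against BPA at the same dose without a diet, which addresses what I3C adds, limma called 0 genes (0%), and the lowest adjusted p was 0.606. At an unadjusted p under 0.05 there were 483 genes higher in BPA250+I3C (2.99%) and 216 lower (1.34%). Without BPA250 replicate 2, a slide 3 array with 94.9% of spots above background, these were 177 higher and 152 lower. Npy had the smallest p, with a log2 fold change of 2.05 ± 0.43 (limma adjusted p = 0.606). Median differences of BPA250+I3C minus BPA250 were -2.69 for fast muscle, -0.52 for luminal epithelium, 0.84 for cholesterol synthesis, 0.59 for fatty acid synthesis and 1.46 for erythroid genes. The same lists in BPA250 minus control, which uses the same control arrays as the main comparison, had medians of -2.89, -0.39, 0.13, 0.31 and -0.40. BPA250 replicate 2 had the lowest cholesterol mean of its group, 0.29 against 1.18 to 1.83 on the others. Its fatty acid mean was also the lowest, 1.81 against 2.84 to 3.96. It is on slide 3, as is control replicate 2, while no BPA250+I3C array is. Slide and animal cannot be told apart for these arrays, and the part of the slide in these lipid medians was not tested. Fast muscle means in BPA250 alone were 2.93, 2.43, 2.45, -2.04 and 1.99, so 4 of the 5 lay above the BPA250+I3C median and all lay below every control array. Acta1 had a log2 fold change of -2.95 ± 1.51 against BPA250, and one of -2.91 ± 1.51 for BPA250 minus control. For Fdps the values were 1.38 ± 0.42 against BPA250 and 0.17 ± 0.42 for BPA250 minus control, for Pmepa1 1.64 ± 0.45 and -0.09 ± 0.45, and for Csn3 -1.69 ± 0.55 and -0.40 ± 0.55. Ucp1 had 2.89 ± 0.84 and -1.11 ± 0.84. None of these passed the adjusted test.

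Against the lower BPA dose with the same I3C diet (BPA25+I3C), limma called 0 genes (0%) as well, with 260 higher (1.61%) and 181 lower (1.12%) at an unadjusted p under 0.05. Fast muscle means in BPA25+I3C were 0.28, 0.85, -2.56, 6.93 and -1.48, with replicate 4 above every control array. Cholesterol synthesis means were 1.58, 2.15, 1.60, 2.42 and 2.29 in BPA250+I3C, against 1.59, 1.41, 1.48, 1.5 and 1.43 in BPA25+I3C. All BPA250+I3C arrays but replicate 1 lay above every BPA25+I3C array. Luminal means in BPA25+I3C were -0.50, -1.85, -0.77, -3.31 and -0.95, overlapping BPA250+I3C. Csn3 had a log2 fold change of 0.53 ± 0.55, Lalba one of 2.15 ± 0.89, Pmepa1 one of 1.82 ± 0.45 and Fdps one of 1.20 ± 0.42, BPA250+I3C minus BPA25+I3C.

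Against BPA250 with genistein, the soy isoflavone, limma called 0 genes (0%) with a lowest adjusted p of 0.0559. At an unadjusted p under 0.05, 1281 genes were higher in BPA250+I3C (7.93%) and 640 lower (3.96%), and this comparison moved most with the settings. Npy had a log2 fold change of 1.92 ± 0.43 (limma adjusted p = 0.0733) and Fdps one of 1.70 ± 0.42. Mean fast muscle levels were -0.95 ± 2.13 in BPA250+I3C and -0.07 ± 2.13 in BPA250+genistein (SD, n = 5 each), and mean cholesterol synthesis levels were 2.01 ± 0.40 in BPA250+I3C and 1.04 ± 0.43 in BPA250+genistein (SD, n = 5 each). Acta1 had a log2 fold change of -0.11 ± 1.51, an error too wide to say that the 2 diets leave it alike.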

How the data were processed

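Messenger RNA of the abdominal left mammary gland was measured on 35 Agilent 1-colour arrays, 5 for each of 7 groups. Per the file headers, Agilent Feature Extraction 9.5.3.1 gave each spot a processed signal, an intensity from which a fitted spatial background surface had been subtracted (on all 35 arrays), with multiplicative detrending and small surrogate values for dim spots. Per the file headers, mean spot and local background intensities are uncorrected, and other columns hold 0 or 1 flags. The authors also deposited a table of log2 values, normalised between arrays by a method not given in the sources used here.

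From the processed signal, log2 was taken and each array's 75th percentile subtracted. Spots flagged as outliers were set to missing, and the 10 spots of each of 263 repeated probes were averaged. Probes well above background on 4 or more of a group's 5 arrays in any group were kept, with at most 5 missing arrays, and the brightest probe stood for a gene. Of 41012 probes, besides 1639 control spots, 21293 were matched to RefSeq genes of GRCr8 and 19719 kept the name in the files. This left 18994 probes and 16151 genes, 9406 of them with a RefSeq name. A model of group means over the 35 arrays was fitted in R 4.3.3 with limma 3.58.1 (files read with the data.table package, version 1.17.8), with Benjamini-Hochberg adjustment at 0.05. The script was tested on simulated data. Counts and figures were made in Python 3.11.15 with pandas 2.3.3, numpy 2.4.6 and matplotlib 3.10.9.

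Genes were named by rule: per direction the 12 of smallest p with a RefSeq name and a log2 fold change beyond 0.58 in size, up to 3 members per list by smallest p, and Ahr, Arnt, Ahrr, Cyp1a1, Cyp1a2, Cyp1b1, Tiparp, Nqo1, Esr1, Esr2, Pgr, Gper1 and Csn2. Epcam, Srebf2, Tpm3, Atp2a2, Hmgcs1 and Ckm fall outside the rule. Ahrr was not found on the array by name, and a few genes that the rule selects are not reported here. There were 47 lists, 25 of pathways and 22 of cell types. The comparison and its lists were chosen with earlier results of these data known. Alternatives changed the scaling, background correction, dim-probe filter, arrays in the fit, array weights and blocks for slide, scan day and replicate number, and left out each replicate. Some lists are given only as a range of medians: lymphatic endothelium, T, B and natural killer cells, neutrophils, keratinocytes, pericytes, synaptic genes and the Ahr complex had medians between -0.44 and 0.44. Among them, the pericyte list held 1 lower gene and the synaptic list 1 higher gene at an unadjusted p under 0.05.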

Additional observations from a re-analysis of the deposited data

Results flagged for a closer look

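In 170 sets of 5 values, 15 held a value further from its neighbours than Dixon's 95% limit allows, 8.8% where chance gives about 5%. Of these 15, 7 concern control replicate 2, on which 93.5% of spots were above background, against 48.5% on the next control array. It is on slide 3, where all arrays had 93.5% to 96.5%.

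On control replicate 2, oxidative phosphorylation had a list mean of 3.50 against 4.91 for the next lowest control, and the white adipocyte list one of 2.79 against 4.35. Hsp90ab1 was at 4.41 against 5.85, Lpl at 4.45 against 6.49, Tpm3 at 3.32 against 5.08 and Csn1s1 at -0.15 against 1.63, each the lowest of the 5 controls. Of 39 lists with at least 5 measured genes, 18 had control replicate 2 outlying in their mean. The mitochondrial and adipocyte differences of BPA250+I3C are therefore given without it too.

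On BPA250+I3C replicate 1, Eef1a2 was at -1.39 against -4.16 for the next highest BPA250+I3C array, and Csrp3 at -0.27 against -3.74, both the highest. On control replicate 5, Myog was at 1.74 against -0.73 and Fitm1 at 1.98 against -0.42, also the highest. All 4 are muscle genes.

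On BPA250+I3C replicate 3, an array of slide 4 with 68.9% of spots above background, Gata3 was the highest at -1.42 against -3.61, and Uqcrfs1 the lowest at 4.88 against 5.64. Bhlhe40 was the highest on BPA250+I3C replicate 5 at -0.56 against -1.32. Cldn4 was the lowest on BPA250+I3C replicate 2 at -2.91 against -1.68.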

How the results depend on the processing

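In BPA250+I3C minus control, limma called 0 genes in each of the 10 fits that leave out a replicate (range 0 to 0), with slide as a fixed block, and with the replicate number as a block (1758 at an unadjusted p under 0.05). It called 162 (30 higher, 132 lower) with array weights, 87 (20 higher, 67 lower) with slide as a random block, 67 (1 higher, 66 lower) from the 10 arrays alone, 1 with scan day as a block and 1, Tnni1, without the 11 arrays of slides 3, 4 and 5 (chosen after seeing the data). Pmepa1 higher and 52 genes lower were called under all 3 of the first-named settings. Centring on probes above background on all arrays gave 376 higher and 631 lower genes at an unadjusted p under 0.05, against 301 and 285. The filter to genes above background on all 10 arrays gave 233 and 72, and leaving out control replicate 2 gave 143 and 274. Same-numbered arrays correlated between 0.40 and -0.30 in their deviations, so replicate numbers were not taken to pair samples. Replicates 1, 4 and 5, whose arrays share a slide, were at 0.17, 0.40 and 0.28, and replicates 2 and 3, on different slides, at -0.24 and -0.30. For the random slide block, the estimated correlation of arrays on 1 slide was 0.584. The fit without a slide term leaves this correlation out.

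Against BPA25+I3C, array weights gave 108 calls and the random slide block 41, and against BPA250 the random slide block gave 2. Against BPA250+genistein there were 229 with centring on probes above background on all arrays, 2245 with array weights, 15 with quantile normalisation, 236 with the replicate block, 149 with scan day, 1878 with slide fixed, 1831 with slide random, 18 in the authors' table, 370 without slides 3, 4 and 5, 1094 without slide 3, and 0 to 53 leaving out a replicate. The cause of these gaps was not tested.

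Of 1917 values for 75 genes, 1824 kept sign and side of the threshold, 81 passed it and 12 turned sign. Centring on probes above background on all arrays turned Csn2 (-0.13), Cyp1b1 (-0.16) and Tiparp (-0.009). Csn2 also turned with slide fixed (-0.03), on slides 1, 8 and 9 alone (-0.21) and without slides 3, 4 and 5 (-0.13). Cyp1b1 turned with quantile normalisation (-0.037), in the authors' table (-0.083) and without control replicate 5 (-0.022, in a range to 0.583 over the replicates left out). Srebf2 turned with quantile normalisation (0.027), without BPA250+I3C replicate 3 (0.04) and without control replicate 1 (0.12, in a range from -0.169).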
